A study of Mus musculus with 8 samples.

Results

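Between E14.5 and E17.5, the p75NTR-positive fraction of the mouse fetal liver showed far lower signal for plasma protein and cholesterol synthesis transcripts. Signal was also lower for some oncofetal genes, and higher for many elastic fibre, basement membrane, contractile and portal fibroblast genes. The comparison set the array labelled E17.5 p75NTR(+) against the array labelled E14.5 p75NTR(+), and a gene entered it when its probe was well above background on the brighter of these arrays. Of 20144 genes with a named probe, 14502 were compared. With 1 array a side there is no replicate, so every value below describes these 2 arrays and carries no test.

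p75NTR is the low-affinity nerve growth factor receptor encoded by Ngfr, and in the liver it marks hepatic stellate cells, the pericytes that line the sinusoids and store vitamin A as retinyl esters. Over late gestation the fetal liver is both a blood-forming organ and a maturing epithelial organ, and its mesenchyme supplies growth factors, retinoids and matrix to both. Stellate cells, portal fibroblasts and vascular smooth muscle share much of their matrix and contractile gene set, and differ in vitamin A handling and in the fibres they lay down.

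The series held 8 arrays, 1 for each group. Liver cells of fetuses (E11.5, E13.5, E14.5 or E17.5) and of newborns at day 1 (P1) were freed with collagenase and sorted as CD45-negative, Ter119-negative and p75NTR-positive, so that leukocytes and red cells were selected against in all of them. The other groups were adult hepatic stellate cells sorted as vitamin A-positive (adult HSC), cultured fibroblasts of embryonic skin (MEF) and purified bone marrow MSCs (MSC). The sources used here do not state the strain, the sex, the number of animals behind an array or whether animals were pooled. The arrays from E11.5 to E17.5 lay on 1 slide, and the other 4 arrays shared another.

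A level is the log2 spot signal relative to the 75th percentile of its array, so 0 stands for the 75th percentile, and a difference is the E17.5 level minus the E14.5 level on the log2 scale. Each array had 43020 non-control spots, of which 58.8% to 64.5% were well above background, 61.3% at E14.5 and 61.0% at E17.5, and none was saturated. The only error that these arrays hold is technical. Over 279 probes printed in 10 spots the SD between spots had a median of 0.0703 at E14.5 and 0.0638 at E17.5, which gives a median SD of 0.0976 for a difference (95th percentile 0.335), and the scanner software's own error of a difference had a median of 0.204. The spread between animals is not known. Where a gene was not well above background on the dimmer array, that array was held at the lowest level it could measure, and the fold is given as "at least", which holds for these processed signals only.

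The sort was checked first against its own marker. Ngfr stood at 4.75 at E14.5 and 4.83 at E17.5, a difference of 0.08, and its levels on the remaining arrays were 4.97 at E11.5, 3.24 at E13.5, 4.01 at P1, 6.42 in adult HSC, 1.37 in MEF and -5.73 in MSC. The 5 p75NTR arrays and the adult HSC array thus all lay above both cultured or marrow-derived populations for this gene. Of 22 stellate cell markers all 22 could be compared, and 21 were well above background at E14.5 and 22 at E17.5. Ptprc, which encodes CD45, was not well above background on either array.

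Transcripts of other cell types were nevertheless present on both arrays, in unequal amounts. The summed linear signal of the hepatocyte and hepatoblast markers (the 75th percentile of an array is 1) was 1475 at E14.5, with 20 of 24 markers above background, and 160 at E17.5, with 18 of 24. The same sum was 11.2 at E11.5, 463 at E13.5, 93.7 at P1 and 56.2 in adult HSC, so that E14.5 was the highest of the 8 arrays. Erythroid markers summed to 164 at E14.5 and 453 at E17.5, portal fibroblast markers to 74.5 and 175, endothelial markers to 93.6 and 137, and stellate cell markers to 426 and 704. Leukocyte and Kupffer cell markers were low on both arrays, with 11 and 12 of 17 above background and a sum of 7.32 at E17.5, as were neural crest, glial and neuronal markers at 5.83 and 9.39. The part of these other cell types in the results that follow was not tested. In sorted bulk RNA, fewer cells of a type and less RNA per cell cannot be told apart.

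**Figure D1:**
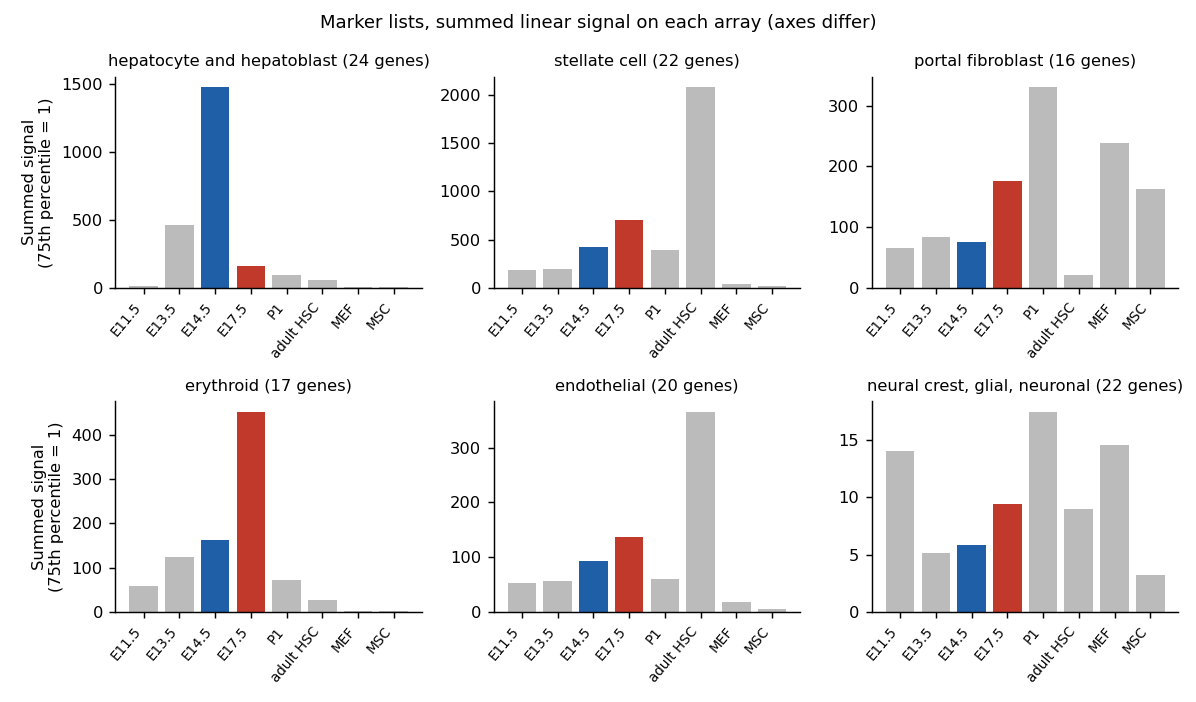
Summed linear signal of 6 marker lists on each of the 8 arrays, with the 75th percentile of an array set to 1; the vertical axes differ between panels, and each bar is 1 array, blue for E14.5 and red for E17.5. Hepatocyte and hepatoblast markers peak at E14.5 (1475) and stand at 160 at E17.5, while erythroid markers peak at E17.5 (453).

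At E17.5, 252 genes (1.74% of those compared) were at least 4-fold higher and 544 (3.75%) at least 4-fold lower, and 54 and 127 of them are bounds. At 2-fold, 1132 genes (7.81%) were higher and 1103 (7.61%) lower, and the median difference of all genes was -0.01. These shares over all genes are the background for every 2-fold count of a list below. Genes past 4-fold were therefore mostly lower, while 2-fold differences were nearly balanced. With another background correction (normexp), which draws dim signals together, 58 genes were at least 4-fold higher and 248 lower, so that the share of higher genes among these went from 31.7% to 18.95%. Of the genes named by rule, 26 higher and 35 lower ones were past 4-fold with normexp too, and 37 higher and 17 lower ones were not; normexp differences stand beside the main genes described below. Just past 4-fold, a log2 difference of 2, were Scube2 (2.0001) and Hlf (-2.009), and just short of it were Dpysl3 (1.9998) and Rassf6 (-1.9993), all chosen after their values were seen. Of 145 genes past 4-fold with more than 1 probe compared, all probes were past 2-fold in the same direction for 118, and probes had opposite signs for 3.

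**Figure D2:**
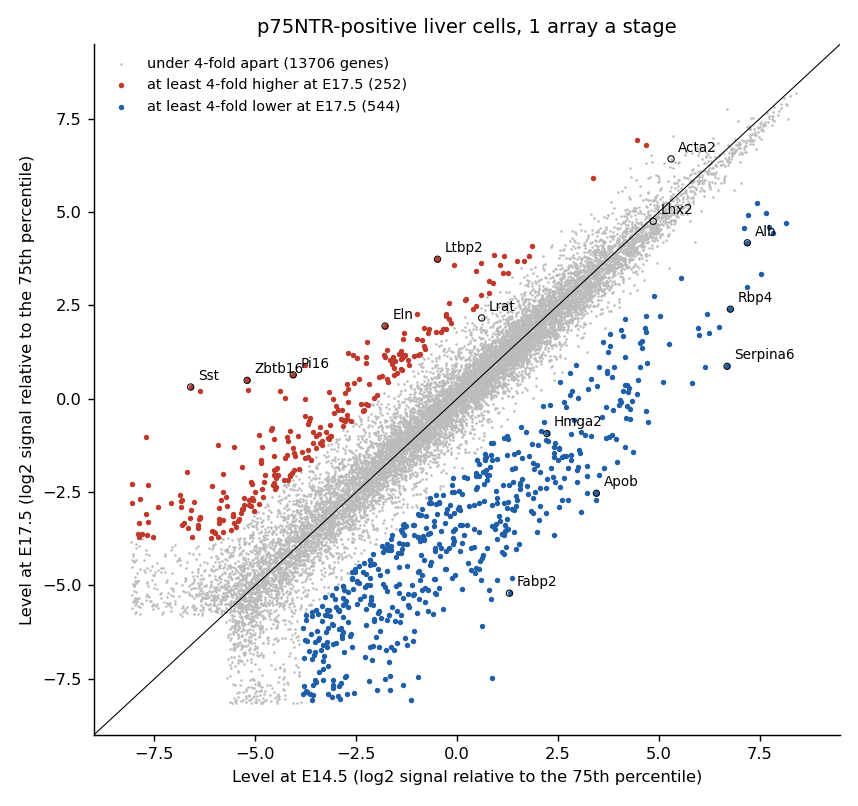
Level of each of 14502 genes at E14.5 (horizontal) and E17.5 (vertical), as log2 signal relative to the 75th percentile of the array, as measured and with no bound; the line marks equal levels, red and blue points are the 252 genes at least 4-fold higher and the 544 at least 4-fold lower at E17.5, and circles mark labelled genes. The cloud of lower genes reaches high E14.5 levels, as for Alb at 7.19 and Serpina6 at 6.69, whereas the higher genes mostly start from low E14.5 levels.

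The genes with the highest differences encoded transcription factors, extracellular proteins and receptors. Zbtb16, the zinc finger repressor PLZF, stood at -5.20 at E14.5 and 0.49 at E17.5, 51.8-fold higher. Its other fetal levels were -1.86 at E11.5 and -4.24 at E13.5, so E14.5 was the lowest of the fetal arrays, and it stood at -0.31 at P1 and -0.48 in adult HSC. Nfatc2, a calcium-dependent transcription factor, went from -4.26 to 0.03 (19.7-fold) by the probe taken, and the mean of all its probes gave 2.93. Pi16, a secreted peptidase inhibitor that marks adventitial fibroblasts, went from -4.06 to 0.64 (26.0-fold), and reached 2.56 at P1. For Pi16 the E11.5, E13.5 and E14.5 arrays lay between -4.06 and -3.35, all below E17.5. Ltbp2, a microfibril-associated protein, went from -0.49 to 3.74 (18.7-fold), and the E11.5 and E13.5 arrays were lower still at -3.66 and -1.95. Col5a3, a chain of type V collagen, went from -2.70 to 1.22 (15.1-fold), and Clec3b, which encodes tetranectin, from -4.92 to -0.96 (15.6-fold). With normexp the log2 differences were 2.88 for Zbtb16 (7.34-fold), 2.13 for Nfatc2, 2.74 for Pi16, 3.93 for Ltbp2, 2.86 for Col5a3 and 1.52 for Clec3b, so that Clec3b was under 4-fold.

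Several of the highest differences were in genes of signalling and transport. Ackr2, a decoy receptor that takes up inflammatory chemokines, stood at -4.39 at E14.5 and 0.20 at E17.5 (24.1-fold), and was not well above background at E11.5 or E13.5. The mean of all its probes gave a difference of 3.05. Adam23, a cell surface protein that binds integrins, went from -3.76 to 0.90 (25.3-fold), with 3.11 as the smaller difference of its 2 probes. Slco2b1, an organic anion transporter, went from -4.59 to -0.79 (13.9-fold) and was 3.94 in adult HSC. Stmn4, a microtubule-binding stathmin, went from -4.61 to -0.83 (13.8-fold). With normexp, Ackr2 and Adam23 differed by 2.11 and 2.90, and Slco2b1 and Stmn4 by 1.49 and 1.39, under 4-fold. These genes share no single later course, since Slco2b1 was higher in adult HSC than on any other array and Clec3b was highest at P1.

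Among genes below background at E14.5, the largest bound was that of Sst, the hormone somatostatin, which stood at 0.31 at E17.5 and was at least 66.1-fold higher. Mpo, the myeloperoxidase of neutrophil granules, stood at 0.22 at E17.5 and was at least 61.7-fold higher. Dpt, the matrix protein dermatopontin, was at least 26.3-fold higher, and Msc, the transcription factor musculin, at least 22.5-fold. The remaining named bounds were Cartpt (a neuropeptide precursor) at least 13.7-fold, Aspn (the proteoglycan asporin) 13.2-fold, Iqcf4 10.9-fold and Kcne4 (a potassium channel subunit) 10.7-fold. With normexp, Sst and Mpo differed by 2.71 and 2.64, past 4-fold, but Dpt, Msc, Cartpt, Aspn, Iqcf4 and Kcne4 by 1.64, 1.18, 1.01, 0.72, 0.78 and 0.75, all under it. The mean of all probes gave 0.74 for Iqcf4 and 1.73 for Kcne4. Mpo was near background again at P1, at -5.55, whereas Sst and Dpt were higher at P1 than at E17.5, Dpt at 1.46.

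**Figure D3:**
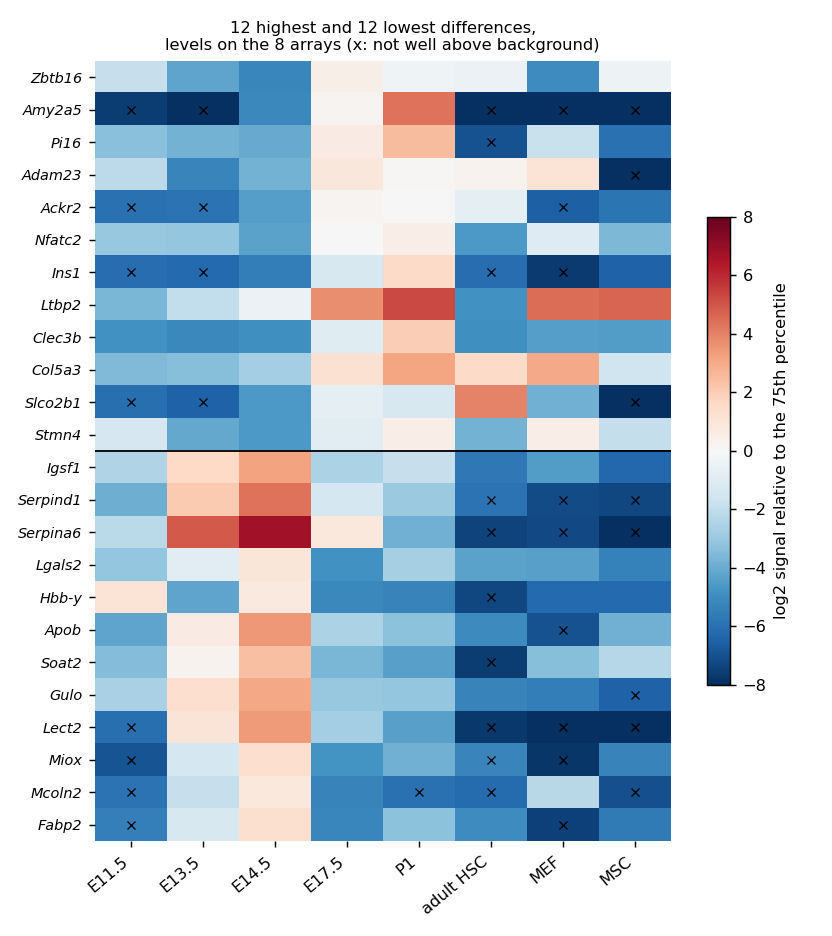
Levels on the 8 arrays of the 12 genes with the highest (top) and the 12 with the lowest (bottom) E17.5 minus E14.5 difference among genes above background on both arrays; colour is the log2 signal relative to the 75th percentile and a cross marks a level not well above background. Of the lower genes, all but Hbb-y have their highest level at E14.5 and their second highest at E13.5, and most of the higher genes are still high at P1.

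Hepatocyte and hepatoblast markers had the lowest median of any list. Of 20 compared, 18 were at least 4-fold lower at E17.5 and the median difference was -4.15, against -0.01 for all genes. Apob, the structural protein of lipoproteins made by hepatocytes, stood at 3.45 at E14.5 and -2.53 at E17.5, 63.3-fold lower. Fga, the fibrinogen alpha chain, went from 2.21 to -3.06 (38.4-fold lower) and Apoa1, the main protein of high-density lipoprotein, from 4.29 to -0.54 (28.4-fold lower). Alb, albumin, went from 7.19 to 4.18 and Afp, alpha-fetoprotein, from 7.65 to 4.98, differences of -3.02 and -2.67, while Apoa2, another lipoprotein component, went from 7.54 to 3.34 and Ambp, a plasma protein precursor, from 7.19 to 2.98. Hnf4a, a transcription factor of hepatocytes, went from 3.05 to -1.46, and Hamp, the iron hormone hepcidin, was at least 24.0-fold lower (-1.63 with normexp, under 4-fold). Pck1 and Tat, enzymes of gluconeogenesis and tyrosine breakdown that are induced around birth, differed by only -0.01 and -0.17 from low levels. The other 4 listed markers (Cps1, Tdo2, G6pc and Cyp2e1) were not well above background on either array.

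Genes outside this list also had some of the lowest differences. Serpina6, which encodes corticosteroid-binding globulin, stood at 6.69 at E14.5 and 0.87 at E17.5, 56.6-fold lower. Serpind1, heparin cofactor II, went from 4.37 to -1.42 (55.1-fold lower), Gulo, the last enzyme of vitamin C synthesis, from 3.07 to -3.04 (69.1-fold), and Lect2, a secreted hepatokine, from 3.44 to -2.70 (70.5-fold). Fabp2, a fatty acid binding protein of the gut, went from 1.30 to -5.21, which at 90.8-fold was the deepest difference between measured levels. Soat2, which esterifies cholesterol in hepatocytes and enterocytes, was 66.3-fold lower, Miox, which breaks down inositol, 71.1-fold, Lgals2, a galectin, 57.5-fold, and Mcoln2, an ion channel, 73.4-fold. Igsf1, a membrane glycoprotein, was 53.7-fold lower by the probe taken, and its 3 probes ran from -5.75 to -2.29. With normexp these measured genes stayed past 4-fold, from -5.70 for Serpina6 to -3.20 for Mcoln2, with Fabp2 at -3.75 (13.4-fold). Among genes below background at E17.5 the ammonium transporter Rhbg was at least 104-fold lower and Shbg, sex hormone-binding globulin, at least 87.6-fold. The lectin Mbl1 was at least 28.8-fold lower, and Arhgap36, Hgd, Acot4 and Proz were between 25.6-fold and 27.3-fold lower at least. Such bounds shrank with normexp, to -2.96 for Rhbg (7.78-fold) and -3.21 for Shbg (9.27-fold), and Mbl1, Arhgap36, Hgd, Acot4 and Proz were under 4-fold, at -1.93 to -1.77. For Rhbg, Shbg, Lect2 and Serpind1 the E13.5 array was the second highest, as it was for Serpina6 at 4.91.

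Complement and acute phase genes divided into members that were far lower and members that were modestly higher. Of 21 compared, 7 were at least 4-fold lower and 6 at least 2-fold higher, with a median of -0.37. C3, the central complement component, went from 6.48 to 1.92 (23.5-fold lower), Cfi, a serine protease that inactivates C3b, from 4.19 to -0.52 (26.2-fold) and Cfb, factor B of the alternative pathway, from 4.05 to -0.08 (17.4-fold). Masp2, a protease of the lectin pathway, was 27.2-fold lower by the probe taken, while another of its 3 probes gave -0.91. Higher members were C6 by 2.01 from a low level, Serping1, the C1 inhibitor, from 4.16 to 5.67, and the scavenger collectin Colec12 by 1.42. The hepatocyte marker sum moved with the lower members, from 1475 to 160, and its part in them was not tested.

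Cholesterol and fatty acid synthesis had the second lowest list median. Of 25 genes, 19 were at least 2-fold lower at E17.5, 16 of these at least 4-fold, none was 2-fold higher, and the median was -2.37. Msmo1, a sterol C4 demethylase, stood at 3.85 at E14.5 and 0.57 at E17.5 (9.75-fold lower), Sc5d, a sterol desaturase, went from 1.86 to -1.20 (8.34-fold), and Hmgcs1, the synthase of HMG-CoA, from 5.02 to 2.21. Sqle, Idi1, Fdps, Lss and Fdft1, which lead from isoprenes through squalene to lanosterol, had differences from -2.95 to -2.62. The fatty acid side differed less, with Fasn at -0.28, Acaca at -0.41 and Acly at -0.98, and the regulators Srebf1 and Srebf2 at 0.02 and -0.64. The summed signal of this list was 133 at E11.5, 122 at E13.5, 176 at E14.5, 54.1 at E17.5 and 49.5 at P1. It was 45.0 in adult HSC, 181 in MEF and 136 in MSC. How far the lower hepatocyte signal enters into this list was not tested.

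The Msmo1 promoter is shown because 13 of 19 promoters of these genes (68.4%) held the CCAAT box on either strand in the 250 bases before the start, against 33.8% of 32851 mouse promoters. These promoters belong to 15 of the 25 genes. The motif was planned for the cell cycle list (80.6%), and every list searched lay above the share of all promoters. The others ran from 36.7% for immediate early genes to 57.1% for erythroid markers, so the motif is not particular to this list. The sequence is from RefSeq, build GRCm38.p6, chr8:64733579-64733828, minus strand, with CCAAT in capitals; matches on the other strand, where present, are capitalised too.
Msmo1: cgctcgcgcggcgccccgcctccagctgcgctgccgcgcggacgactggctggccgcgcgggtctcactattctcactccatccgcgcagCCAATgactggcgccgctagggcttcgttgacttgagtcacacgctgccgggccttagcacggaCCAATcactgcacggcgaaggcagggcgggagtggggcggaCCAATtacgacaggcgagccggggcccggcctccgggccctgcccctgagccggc
The window holds 3 matches. TCACNCCAC, a sterol regulatory element form searched after the values were seen, was in 1 of 19 promoters of the list and in 1.05% of all.

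Genes of fetal growth were lower at E17.5 in part. Of 20 oncofetal and imprinted growth genes, 7 were at least 2-fold lower, 4 of them at least 4-fold, and none was 2-fold higher; the median was -0.49. Hmga2, a chromatin protein of proliferating embryonic cells, stood at 5.15 at E11.5, 4.32 at E13.5, 2.23 at E14.5, -0.93 at E17.5 and -1.84 at P1, so that each later p75NTR array was lower than the one before. The E14.5 to E17.5 step of Hmga2 was 8.93-fold. Lin28b, which blocks maturation of let-7 microRNAs, went from -0.72 to -3.61 by the probe taken, and its other probe gave -0.67. Phlda2, an imprinted growth inhibitor best known in placenta, went from -1.45 to -4.97, a difference of -3.52, and Peg10, an imprinted gene of retroviral origin, from -0.49 to -3.08. With normexp, Lin28b, Phlda2 and Peg10 differed by -1.47, -1.46 and -1.54, under 4-fold. Igf2, Dlk1, Mest, Plagl1 and Nnat, imprinted genes with fetal expression, differed by -0.16 to 0.01, and Meg3 by 0.62. Hox genes differed little: of 20 compared, 3 were at least 2-fold lower (Hoxa5 and Hoxc4 with differences of -1.25 and -1.15, and Hoxb9 by at least 2.66-fold), and the median was -0.22. Among all genes compared, 7.61% were at least 2-fold lower. With normexp, Hoxa5, Hoxc4 and Hoxb9 were under 2-fold, at -0.69, -0.90 and -0.47.

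Cell cycle genes were lower almost throughout, by small amounts. Of 34 genes, 33 had a difference below 0, 5 were at least 2-fold lower (7.61% of all genes compared were), and the median was -0.69. The 5 were Ccne1, the cyclin of S phase entry (4.02 to 2.68), Ccnb1, the mitotic cyclin (3.71 to 2.45), the mitotic kinases Plk1 (4.11 to 2.89) and Aurka (a difference of -1.18), and Cdc20, an activator of the anaphase-promoting complex (4.42 to 3.40). Mki67, a proliferation marker, went from 4.33 to 3.91, and the replicative helicase genes Mcm2 to Mcm7 differed by -0.80 to -0.26. E2f1, a transcription factor of the cycle, was the 1 member above 0, at 0.19. Ccnb1 was 1.17 at P1 and -2.76 in adult HSC, so that the E17.5 array lay between E14.5 and the later liver arrays.

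The Ccnb1 promoter is printed as an example of the CCAAT boxes that mark cell cycle promoters: 25 of 31 promoters of this list (80.6%) held CCAAT on either strand, against 33.8% of all promoters. It lies at chr13:100786487-100786736, minus strand, in GRCm38.p6 (RefSeq), with CCAAT in capitals at its 2 matches.
Ccnb1: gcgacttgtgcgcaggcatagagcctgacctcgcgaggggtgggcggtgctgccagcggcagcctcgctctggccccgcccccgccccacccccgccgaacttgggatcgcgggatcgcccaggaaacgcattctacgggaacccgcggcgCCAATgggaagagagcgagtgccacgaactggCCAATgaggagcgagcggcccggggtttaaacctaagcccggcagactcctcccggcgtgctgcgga
TTTGAA, a core of the cell cycle homology region, was in 8 of 31 promoters (25.8%), against 16.0% of all.

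Matrix genes formed the broadest group of higher genes. Among 26 genes of elastic fibres and small leucine-rich proteoglycans, 16 were at least 2-fold higher at E17.5, 8 of them at least 4-fold, none was 2-fold lower, and the median was 1.23. Eln, the elastin monomer, stood at -1.79 at E14.5 and 1.95 at E17.5 (13.3-fold), after -3.68 at E11.5 and -1.65 at E13.5, and reached 4.11 at P1. Its E17.5 level thus lay above all earlier stages, and in adult HSC it was -2.28. Mfap5 and Mfap4, microfibril-associated glycoproteins, were higher by 2.93 and 1.89, Fbn1, the fibrillin of microfibrils, went from 1.66 to 3.27, and Ltbp4, which is needed for elastic fibre assembly, from 4.80 to 6.53. Among proteoglycans, Podn (podocan) was 11.6-fold higher from -4.83, Ogn (osteoglycin) went from 0.23 to 2.68 and Fmod (fibromodulin) from -0.89 to 0.84. Podn was under 4-fold with normexp, at 1.31, and Eln at 2.93 was not. The abundant Dcn and Lum, decorin and lumican, differed by 0.07 each, and the fibulin gene Fbln2 by -0.05.

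Collagens and associated matrix were also mostly higher at E17.5. Of 24 genes, 12 were at least 2-fold higher, 4 at least 4-fold, none 2-fold lower, with a median of 1.01. The fibrillar collagen genes Col1a1 (4.79 to 4.56), Col1a2 (7.28 to 7.52) and Col3a1 (5.89 to 6.04) differed by -0.23 to 0.24. Among those at least 4-fold higher were Col5a3 and the thrombospondins Thbs2 (-0.70 to 1.88) and Thbs1 (0.59 to 2.78), matricellular proteins that regulate TGF-beta and angiogenesis. Crosslinking enzymes of the lysyl oxidase family were higher by 1.64 for Loxl1, 1.29 for Lox and 1.16 for Loxl2. The type VI collagen genes Col6a1 and Col6a2 were higher by 1.19 and 1.35.

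All 20 basement membrane genes compared had a difference above 0, 8 were at least 2-fold higher, and the median was 0.82. The laminin alpha chains Lama2 (0.78 to 3.15) and Lama4 (-0.52 to 1.79), which occur in muscle and vessel basement membranes, were 5.19-fold and 4.96-fold higher. Lama1, the early embryonic alpha chain, differed by 0.51. Lamb3, a laminin chain of epithelia, was 4.56-fold higher from a low level (-5.41), and differed by 0.36 with normexp. The main network collagens Col4a1 and Col4a2 went from 3.99 to 5.54 and from 2.91 to 4.47. Of 17 matrix proteases, 4 were at least 2-fold higher and 1 lower, with a median of 0.71. The 4 were Adamts4 and Adamts5, which cut aggrecan and versican, by 2.08 and 1.01, the procollagen peptidase Adamts2 by 1.21 from 3.90, and Adamts8 by 2.53, with 0.64 from its other probe. Adamts1, Adamts15 and Adamts9 of the same list were under 2-fold, at 0.81, 0.72 and 0.11. With normexp, Adamts4 and Adamts8 were under 4-fold, at 1.49 and 1.73. Mmp19 was the lower one, by -1.25.

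Portal fibroblast markers had the highest median of any list, 2.11, with 12 of 16 at least 2-fold higher, 8 at least 4-fold and none 2-fold lower. The list shares Eln, Fbln2 and Mfap4 with the elastic fibre list and Msln with the mesothelial list, so these counts are not separate. Besides Pi16, Dpt, Clec3b and Eln, the members at least 4-fold higher were Gas6, a ligand of TAM receptors (-0.07 to 3.57), Cd34, a sialomucin (0.91 to 3.84), Thy1, a surface glycoprotein of portal fibroblasts (-0.19 to 2.13), and Msln, mesothelin, from below background. Msln differed by 0.43 with normexp, and the normexp values of Clec3b and Dpt are given above. Entpd2, an ectonucleotidase of portal fibroblasts, went from -0.87 to 0.74. Cd248 and Gli1, surface and Hedgehog-pathway markers of perivascular cells, differed by 0.39 each. The summed signal of this list was 65.8 at E11.5, 83.9 at E13.5, 74.5 at E14.5, 175 at E17.5 and 331 at P1. It was 21.5 in adult HSC, 239 in MEF and 163 in MSC, so a high sum was not particular to liver arrays. The E11.5 to E14.5 arrays lay close together and both later p75NTR arrays above them, while the vitamin A-sorted adult array lay lowest of the 8.

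Contractile genes were mostly higher, many of them by under 2-fold. Of 19, 18 had a difference above 0, 8 were at least 2-fold higher and 11 were under 2-fold either way. None was 2-fold lower, the lowest difference was -0.78 and the median was 0.92. Acta2, smooth muscle actin, stood at 3.85 at E13.5, 5.30 at E14.5, 6.42 at E17.5 and 6.81 at P1, and was 2.17-fold higher at E17.5 than at E14.5; its E11.5 level lay between those of E13.5 and E14.5. Myocd, the coactivator that drives smooth muscle genes, went from -3.19 to -1.04 (4.45-fold, or 2.09-fold with normexp), Cnn1, calponin, from 0.20 to 1.92 and Myh11, smooth muscle myosin, from -1.31 to 0.39. Synpo2 was 1.33 higher by the probe taken, 0.04 by another, and 0.28 with normexp. Tagln, Myl9 and Tpm1 were higher by 0.96, 0.63 and 0.51, under 2-fold.

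Pericyte genes had a median of 1.16, with 8 of 15 at least 2-fold higher and 3 at least 4-fold. Ndufa4l2, a mitochondrial protein of pericytes that hypoxia induces, went from 1.15 to 3.82 (6.35-fold), Rgs4, a regulator of G protein signalling, from -4.46 to -2.04 and Higd1b from -3.91 to -1.88. With normexp, Ndufa4l2 differed by 2.59, and Rgs4 and Higd1b by 0.54 and 0.58. Cspg4, the proteoglycan NG2, went from -0.62 to 1.01 and Notch3, a receptor of mural cells, from 2.54 to 3.97. Pdgfrb, the receptor through which PDGF-B recruits pericytes, went from 3.51 to 4.23, and the KATP channel subunit genes Kcnj8 and Abcc9 were higher by 1.16 and 0.68. Glycolysis and hypoxia genes had a median of -0.05 over 22, and of these Egln3, a prolyl hydroxylase induced by hypoxia, was 5.92-fold higher (3.04-fold with normexp), whereas Vegfa, Adm and Slc2a1 differed by -0.12, -0.19 and 0.52.

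Receptors for hormones and vasoactive agents differed in both directions: of 28 compared, 10 were at least 2-fold higher and 3 lower, with a median of 0.55. Agtr2, the fetal angiotensin receptor, stood at -4.53 at E14.5 and -1.08 at E17.5 (10.9-fold), and Agtr1a, the receptor for the pressor action of angiotensin, at 2.95 and 4.41. Ramp1, which makes the calcitonin receptor-like receptor a CGRP receptor, was 9.63-fold higher by the probe taken, and its 3 probes ran from 0.35 to 3.56; its partner Calcrl differed by 0.24. Adcyap1r1, the PACAP receptor, was at least 5.32-fold higher and was 0.81 in adult HSC. Avpr1a, a vasopressin receptor, was at least 6.08-fold lower. With normexp, Agtr2, Adcyap1r1 and Avpr1a were under 4-fold, at 1.16, 0.16 and -0.73, and Ramp1 at 2.78 was not.

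Stellate cell markers had a median of 0.81, with 9 of 22 at least 2-fold higher, 3 at least 4-fold and none 2-fold lower. Lrat, which esterifies retinol for storage, stood at -4.68 at E11.5, -1.89 at E13.5, 0.61 at E14.5, 2.16 at E17.5, -0.13 at P1 and 5.12 in adult HSC. Its E17.5 level was 2.94-fold above E14.5 and the highest of the p75NTR arrays. Adamtsl2, which binds fibrillin and LTBP1, went from -2.42 to 0.54 (7.80-fold) and Steap4, a metalloreductase, from -0.86 to 1.56 (5.36-fold, or 3.999-fold with normexp). Vipr1, the VIP receptor, was 3.77-fold higher by the probe taken and differed by 0.63 on the other. Cygb, cytoglobin, and Ecm1, a secreted matrix protein that holds TGF-beta latent, went from 3.31 to 4.94 and from 5.35 to 7.03. Des, desmin, was 0.70 higher, and Reln, Colec10, Colec11, Angptl6 and Gdf2 were higher by 0.39 to 0.60. Adamtsl2, Steap4, Lrat and Vipr1 were all higher in adult HSC than at E17.5.

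Vitamin A handling genes differed unevenly. Of 20 retinoid genes, 4 were at least 2-fold higher and 3 lower, with a median of 0.16. Aldh1a1, which makes retinoic acid, stood at -1.82 at E14.5 and 1.17 at E17.5 (7.94-fold) and reached 5.12 in adult HSC, and Aldh1a2, the main such enzyme of embryos, went from -3.96 to -2.44. Rbp4, the plasma carrier of retinol secreted by hepatocytes, went from 6.77 to 2.40 (20.7-fold lower), beside the hepatocyte marker sum of 1475 and 160, whose part was not tested. Crabp1, a cytosolic retinoic acid binding protein of embryonic mesenchyme, went from -0.05 to -3.49 (10.9-fold lower), and Stra6, a receptor for RBP4, was at least 3.10-fold lower. With normexp, Crabp1 stayed past 4-fold at -2.11, and Stra6 was under 2-fold at -0.46. Lipid droplet genes had a median of 0.15 over 16, with G0s2, an inhibitor of the lipase ATGL, and Fabp4, a fatty acid carrier, higher by 1.81 and 1.75, and Cebpa and Dgat2 lower, by 8.15-fold (3.35-fold with normexp) and 5.43-fold. Plin2, a coat protein of lipid droplets, differed by -0.63.

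The transcription factors that mark the liver mesenchyme lay close together on both arrays. Of 27, 4 were at least 2-fold higher (7.81% of all genes compared were), none was 2-fold lower and the median was 0.11. Lhx2, which keeps stellate cells quiescent, stood at 4.86 and 4.75, Gata4 at 3.16 and 3.03, Hand2 at 2.77 and 2.83, and Tcf21, a regulator of mesenchyme in visceral organs, was 0.89 higher at 1.89. The 4 were Prrx1, a limb and mesenchyme homeobox factor (-5.05 to -2.70), Osr1 (-2.83 to -0.74), Heyl, a Notch target (1.52 to 2.63), and Irf1 (4.77 to 5.93, with 0.07 from its other probe). With normexp, Prrx1 and Osr1 were under 4-fold, at 0.42 and 1.20. Wt1, a factor of mesothelium and its descendants, had the lowest difference of the list, at -0.92, and the epithelial keratin genes Krt8 and Krt18, which stand in the mesothelial list but are also made by hepatocytes, were 7.68-fold and 8.23-fold lower.

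**Figure D4:**
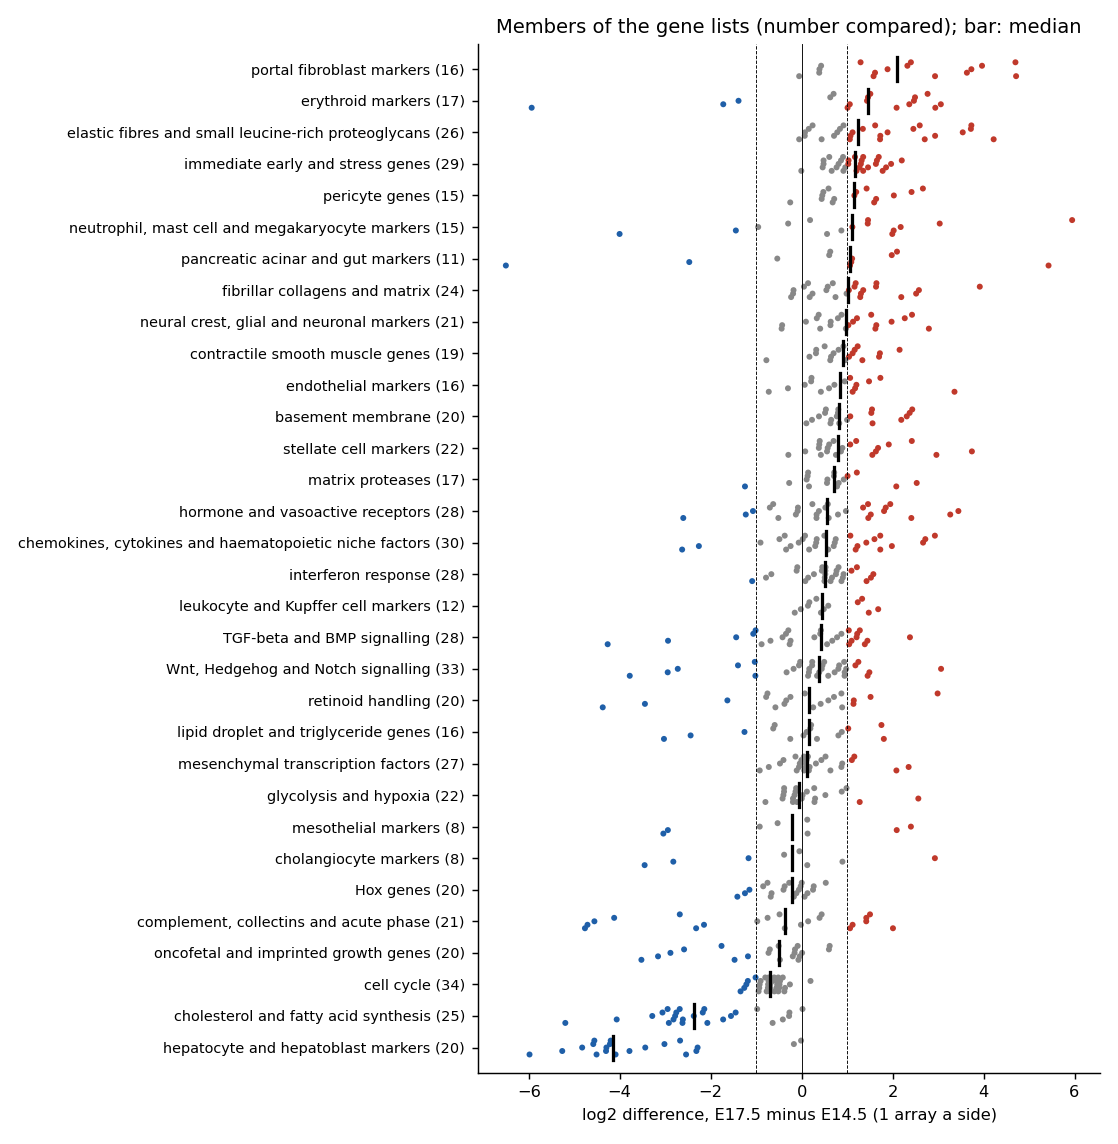
E17.5 minus E14.5 log2 difference of every compared member of the 32 gene lists, ordered by list median (black bar), with the number of members in brackets; dashed lines mark 2-fold, red and blue points lie past it, and bounds are plotted at their bound. Portal fibroblast markers have the highest median (2.11) and hepatocyte and hepatoblast markers the lowest (-4.15).

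Signalling lists were mixed. Of 28 TGF-beta and BMP genes, 9 were at least 2-fold higher and 5 lower, with a median of 0.42. Ligands that were higher included Tgfb2 (1.59 to 2.80), Tgfb3 (1.81 to 2.85), Inhba, the activin A subunit (0.05 to 1.33) and Bmp4 (1.51 to 2.61), along with the receptor Tgfbr2 (2.02 to 3.05) and the antagonist Grem1 (5.21-fold, from -4.43). Bmp7 stood at -0.30 at E14.5 and -4.56 at E17.5 (19.2-fold lower) and at -1.72 at P1, so that E17.5 was the lowest of the p75NTR arrays. Gdf15, a stress-induced hormone, was 7.67-fold lower. Bmp7 and Gdf15 differed by -2.19 and -2.56 with normexp, and Grem1 by 0.65. Of 33 Wnt, Hedgehog and Notch genes, 5 were at least 2-fold higher and 6 lower, where the shares over all genes were 7.81% and 7.61%. Wnt5a, a ligand of non-canonical Wnt signalling, went from -3.08 to -0.02 (8.37-fold). Dkk1, a secreted Wnt antagonist, stood at 1.21, 1.70 and 1.51 at E11.5, E13.5 and E14.5, at -1.44 at E17.5 and at -5.17 at P1, so that the earlier 3 arrays lay close together and E17.5 was 7.70-fold below E14.5. Ihh, a Hedgehog ligand, was 13.7-fold lower, and Wif1, a Wnt inhibitor, at least 6.61-fold lower. With normexp, Dkk1 stayed past 4-fold at -2.26, and Wnt5a, Ihh and Wif1 did not, at 1.62, -1.76 and -0.74.

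Immediate early and stress genes were higher as a list. Of 29, 17 were at least 2-fold higher, 28 had a difference above 0, none was 2-fold lower and the median was 1.17. Ccn2, connective tissue growth factor, stood at 1.49 at E14.5 and 3.70 at E17.5 (4.60-fold), and it was 1.70 at E11.5. Junb, an AP-1 subunit, went from -0.07 to 1.90, Zfp36, which destabilises cytokine mRNAs, from -0.28 to 1.58, and Gadd45b, a stress sensor, from 2.35 to 4.13. Fos, Egr1 and Jun were higher by 0.92, 0.87 and 0.48.

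The Zfp36 promoter is shown because 5 of 30 promoters of this list (16.7%) held a CArG box, the binding motif of serum response factor, against 1.47% of all promoters. Contractile genes held it in 3 of 16 (18.8%). The window is chr7:28379229-28379478, minus strand, GRCm38.p6 (RefSeq), with the CArG box in capitals.
Zfp36: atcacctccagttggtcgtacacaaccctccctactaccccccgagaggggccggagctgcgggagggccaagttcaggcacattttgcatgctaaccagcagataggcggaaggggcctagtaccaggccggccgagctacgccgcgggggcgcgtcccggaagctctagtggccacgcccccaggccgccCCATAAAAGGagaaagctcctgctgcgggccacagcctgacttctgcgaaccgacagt
TGANTCA, an AP-1 motif, was in 0 of 30 and in 6.75% of all, and TGACGTCA, the cAMP response element, in 3 of 30 and in 1.55% of all.

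Interferon response genes had a median of 0.52 over 28, with 5 at least 2-fold higher and 1 lower (7.81% and 7.61% of all genes compared). Tap1 and Psmb8, of antigen processing, went from -4.17 to -2.59 and from -1.46 to 0.06, and Ifi27l2a and Ifitm3 were 2.69-fold and 2.32-fold higher. With normexp, Tap1 was under 2-fold at 0.31, and Psmb8, Ifi27l2a and Ifitm3 were not, at 1.14, 1.34 and 1.23. H2-K1, a class I molecule, was the lower member, by -1.09, while H2-D1 was higher by 0.92, and the signals of these related genes may overlap.

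Chemokines, cytokines and haematopoietic niche factors differed unevenly, with 11 of 30 at least 2-fold higher, 2 lower and a median of 0.54. Il6, an inflammatory cytokine, stood at -4.22 at E14.5 and -1.50 at E17.5 (6.59-fold), Il34, a ligand of the CSF1 receptor, at -3.57 and -0.90 (6.36-fold), and Spp1, osteopontin, was at least 7.62-fold higher. Cxcl14 was at least 6.18-fold lower at E17.5 although it stood at 4.91 in adult HSC. Normexp put these 4 genes under 4-fold, with Il6 2.02-fold, Il34 2.15-fold and Spp1 1.55-fold higher and Cxcl14 1.59-fold lower. Of the niche factors, Cxcl12, the retention chemokine of blood stem cells, stood at 6.72 and 6.80, Angpt1 at 0.34 and 0.27, and Kitl, stem cell factor, at -0.30 and -1.20, 1.87-fold lower.

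Haematopoietic transcripts differed even though CD45 and Ter119 cells were sorted away. Of 17 erythroid markers, 12 were at least 2-fold higher and 3 lower, with a median of 1.46. Alas2, the erythroid enzyme of haem synthesis, stood at -1.31 at E14.5 and 1.75 at E17.5 (8.34-fold), and Slc4a1, the band 3 anion exchanger, at -0.21 and 2.56 (6.82-fold). At P1 both were low again, at -1.67 and -0.95. The 3 lower genes were the embryonic globins: Hbb-y, of yolk sac erythrocytes, stood at 1.12 at E11.5, -4.23 at E13.5, 0.80 at E14.5, -5.13 at E17.5 and -5.35 at P1, 61.2-fold lower at E17.5 than at E14.5, and Hbb-bh1 and Hba-x differed by -1.39 and at least -1.72. The E14.5 array thus broke the order of stages for Hbb-y, lying above E13.5. Hbb-bs, an adult beta globin, was 7.67-fold higher, but Hba-a1 and Hba-a2, and Hbb-bs, Hbb-bt and Hbb-b2, are near-identical copies whose probes may share signal, so their separate values are uncertain.

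The Hbb-bs promoter is given for the GATA motif of erythroid genes: GATAAG, searched after the values were seen, was in 8 of 14 erythroid promoters (57.1%) on either strand, against 6.55% of all. It lies at chr7:103827929-103828178, minus strand, GRCm38.p6 (RefSeq), with GATAAG in capitals.
Hbb-bs: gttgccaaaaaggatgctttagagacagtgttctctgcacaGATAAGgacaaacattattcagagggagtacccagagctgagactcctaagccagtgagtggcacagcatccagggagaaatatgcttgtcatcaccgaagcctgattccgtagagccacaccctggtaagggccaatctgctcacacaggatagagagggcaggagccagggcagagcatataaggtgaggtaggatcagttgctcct
As for every window shown, a match describes the letters only.

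Markers of further cell types also differed. Neutrophil, mast cell and megakaryocyte markers had a median of 1.12 over 15, with 8 at least 2-fold higher, among them Mpo and Ctsg (at least 8.20-fold), granule enzymes, and S100a8 (-1.38 to 0.80); the platelet chemokine Ppbp was at least 16.0-fold lower. Ctsg, S100a8 and Ppbp were under 4-fold with normexp, at 0.46, 1.79 and -1.43. Endothelial markers had a median of 0.83 over 16, with 7 at least 2-fold higher and none lower. Flt1, a VEGF receptor, stood at -2.25 and 1.11 (10.3-fold), Clec4g, a lectin of sinusoidal endothelium, at 2.32 and 4.05, and Stab2, a hyaluronan scavenger receptor there, at -2.18 and -0.70, but Pecam1 and Kdr, defining endothelial genes, differed by 0.21 and -0.30. Over 12 markers of leukocytes and Kupffer cells the median was 0.46, with 4 at least 2-fold higher, all from levels below -3: Tyrobp, Marco, Cd5l and Lyz1, by 1.23 to 1.68. These 4 were under 2-fold with normexp, at 0.07, 0.55, 0.19 and 0.27. Neural crest, glial and neuronal markers had a median of 0.97 over 21, with 10 at least 2-fold higher, such as S100b (-5.08 to -2.28), Tubb3, a neuronal tubulin (-4.57 to -2.30), Prph, a neuronal intermediate filament (-4.60 to -2.62), and Dbh, which makes noradrenaline (at least 5.38-fold). These neural levels were low at both stages, and with normexp S100b, Tubb3 and Dbh differed by 0.71, 0.40 and 0.37.

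Pancreatic acinar and gut markers also appeared. Of 11 compared, 6 were at least 2-fold higher and 2 lower, and 6 of the 11 differences are bounds. Amy2a5, pancreatic amylase, stood at -5.18 at E14.5, 0.24 at E17.5 and 4.32 at P1, 43.1-fold higher at E17.5 by the probe taken, while its other probe gave -0.12, and near-identical amylase copies exist. Cpb1, pancreatic carboxypeptidase B, was at least 4.28-fold higher and reached 2.01 at P1. Ins1, insulin, stood at -5.52 at E14.5, -1.28 at E17.5 and 1.55 at P1 (18.9-fold). Vil1 and Fabp2, intestinal epithelial genes, were lower, Vil1 by at least 5.54-fold. With normexp, Amy2a5 differed by 2.67, and Ins1, Cpb1 and Vil1 were under 4-fold at 1.48, 0.24 and -0.72. The master regulators Pdx1 and Ptf1a and the gut factor Cdx2 were not well above background on either array.

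The same genes were then read in 2 pairs of arrays that the comparison did not use. In P1 minus E13.5, where stage and slide cannot be told apart, 203 of the 252 higher genes were also at least 4-fold higher, which is 80.6% of them and 20.4% of the 994 genes so called in that pair; the background there is 6.61% of 15028 genes. Their median difference was 4.04, against -0.08 for all genes, and 3 were at least 2-fold lower (11.2% of all genes there were). Of the 544 lower genes, 182 were at least 4-fold lower (33.5% of them and 51.3% of 355 called, background 2.36%), with a median of -1.49. In this pair 37 of them were at least 2-fold higher (16.6% of all genes there were). Of the higher genes named by rule, those under 2-fold in P1 minus E13.5 were Iqcf4 (0.67), Mpo (0.55), Egln3 (0.16), Alas2 (0.11), Hbb-bs (-0.32) and Slc4a1 (-0.91). Of the lower genes named by rule, those at least 2-fold higher in P1 minus E13.5 were Hamp (at least 3.17), Tm4sf4 (1.42), a cholangiocyte marker, and Wif1 (1.18), and 8 more were under 2-fold in either direction, from Bmp7 (-0.69) to Krt8 (0.84).

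**Figure D5:**
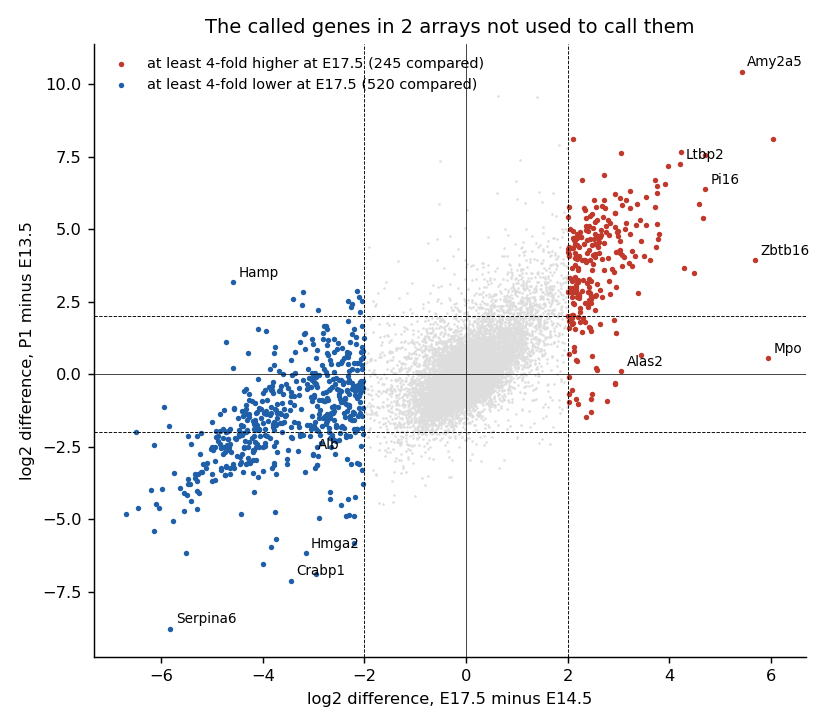
Log2 difference between E17.5 and E14.5 (horizontal) against that between P1 and E13.5 (vertical), 4 different arrays, for genes compared in both; dashed lines mark 4-fold, red and blue points are genes at least 4-fold higher or lower at E17.5, and bounds are plotted at their bound. Of 252 higher genes 203 lie past 4-fold in the upper right, while 182 of 544 lower genes lie past it in the lower left.

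The other pair was adult HSC minus E11.5, where stage, sort and slide cannot be told apart. Of the 252 higher genes, 192 could be compared there, and 81 were at least 4-fold higher (32.1%, background 9.33%). A further 73 were at least 2-fold lower, where the share over all genes of that pair was 27.4%. The median was 0.74. At the level of single arrays, 142 of the 252 (56.3%) were well above background in adult HSC and 110 (43.7%) were not, against 87.2% above background for all genes compared. The higher genes had a median level of -3.73 at E14.5, -0.95 at E17.5, -0.19 at P1, -4.78 in adult HSC, -2.13 in MEF and -5.63 in MSC. Of the 6 arrays outside the comparison, P1 held the highest level for 117 of them (46.4%, against 12.3% of all genes) and adult HSC for 61 (24.2%, against 24.0%). The lower genes had median levels of -4.29 at E11.5, -1.78 at E13.5, -0.12 at E14.5, -3.64 at E17.5 and -3.44 at P1, and E13.5 held the highest of the 6 for 304 of them (55.9%, against 10.6%).

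By list, the P1 minus E13.5 medians of portal fibroblast markers (4.08), contractile genes (2.26), elastic fibre and proteoglycan genes (2.07), immediate early genes (1.93) and fibrillar collagens and matrix (1.62) were all positive, as between E17.5 and E14.5. Those of hepatocyte markers (-2.51), cholesterol genes (-1.44), cell cycle genes (-1.36) and oncofetal genes (-1.06) were negative, again in the same direction. Erythroid markers were at -0.91 there, against 1.46 between E17.5 and E14.5, and complement genes at 1.74 against -0.37.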

How the data were processed

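The deposited files are Agilent 1-colour (Cy3) scanner output, 1 file per array. Their intensity values are background-subtracted processed signals made with Agilent Feature Extraction 11.5.1.1, per the file headers, with no scaling between arrays. The log2 values of the deposited series table follow these signals scaled to the 75th percentile, per the labels' design text: their medians were -3.87 (E14.5) and -3.89 (E17.5), and after an offset of -0.12 they matched within 0.02 for 96.7% and 100% of probes; no centring per gene was found, and the sources used here do not explain the offset.

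Levels were log2 processed signals minus the log2 75th percentile of the array's non-control spots. Outlier spots (84 at E14.5, 90 at E17.5) were dropped and spots of a probe averaged. Transcript accessions named 26581 of 39429 probes (67.4%) in the RefSeq table of GRCm38.p6, and a gene was read from its brightest probe by mean level across all 8 arrays. A gene not well above background on the dimmer array (1076 genes) was held there at the higher of its own level and the lowest level well above background, -5.73 at E14.5 and -5.83 at E17.5. Thresholds were 4-fold, and 2-fold for list members.

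The members, the 32 lists and the rule for naming genes were chosen with earlier results of these data known. The rule named the 12 highest and 12 lowest differences above background on both arrays, up to 8 bounds a side, up to 4 members a list with the largest difference, and Ngfr, Lrat, Des, Acta2, Col1a1, Tcf21 and Lhx2; other genes named were chosen after their values were seen, and some genes the rule names are not reported here. Of the listed symbols, 4 were not in the RefSeq table.

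Alternatives were normexp background correction (limma 3.58.1 in R 4.3.3, offset 50, on median spot signals, since the files used here hold no mean signal), median centring, quantile normalization, other filters, no bound, other probe rules and the series table. The steps were run on simulated data with large changes set only on genes that were not dim, so that run does not cover calls near background. The other work used Python 3.11.15, pandas 2.3.3, numpy 2.4.6 and matplotlib 3.10.9.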

Additional observations from a re-analysis of the deposited data

How the results depend on the processing

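Under normexp background correction 58 genes were at least 4-fold higher and 248 lower; the count of genes at least 2-fold higher at E17.5 was 439 and of genes at least 2-fold lower at E17.5 566, with a median of all genes of -0.09; all of these 58 and 248 genes were among the 252 and 544. Of 162 genes named by rule, 139 moved with normexp by more than the technical SD between spots, and 37 higher and 17 lower ones were no longer past 4-fold. Without bounds the 4-fold counts were 367 and 674, with only genes above background on both arrays 198 and 417, and under quantile normalization, median centring, the mean of all probes, the probe with the smallest difference, no filter and the series table they ran from 238 to 270 and from 504 to 544. Amy2a5 changed sign, to -0.12, with the probe that differed least. Of the higher genes, 203 were at least 4-fold higher in P1 minus E13.5 and 81 in adult HSC minus E11.5. No list median of 1 or more in size changed sign under these alternatives, though that of pancreatic and gut markers was 0 in one of them, and the small medians of lipid droplet and of glycolysis genes crossed 0. No paired analysis was possible because each group had 1 array. The number of arrays limits every value, and dim signals limit the folds of genes near background.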

Other observations

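Genes of endocrine cells that no list held were also higher at E17.5, chosen after their values were seen. Besides Ins1 and Sst, Ins2, the second mouse insulin gene, stood at -3.70 at E14.5, -1.38 at E17.5 and 1.51 at P1, and Pyy, a peptide hormone of gut and islet cells, at -4.27, -1.60 and 1.35. Iapp, the islet peptide amylin, was at least 4.83-fold higher at E17.5, and Chga, a granule protein of endocrine cells, was 3.72-fold higher. Gcg, glucagon, went the other way: it stood at -0.03 at E11.5 and -3.73 at E14.5, was not well above background at E17.5, and stood at -2.25 at P1. Ins1 and Ins2 are closely related sequences, so their probes may share signal. The pancreatic acinar and gut markers summed to 3.91 at E14.5, 3.71 at E17.5 and 77.8 at P1. The E14.5 sum came mostly from the gut gene Fabp2, which went from 1.30 at E14.5 to -5.21 at E17.5. The median level of the list was -7.19 at E14.5, -5.17 at E17.5 and 0.26 at P1, with 6, 10 and 14 of 18 above background.

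Several further genes with large differences, also chosen after their values were seen, are of known interest in mesenchyme. Mgp, an inhibitor of matrix calcification, stood at 0.60 at E14.5 and 3.64 at E17.5 (8.23-fold higher). Hsd11b1, which regenerates active glucocorticoid, went from -2.47 to 1.08 (11.7-fold) and was 5.94 in adult HSC. Ntrk2, the receptor of brain-derived neurotrophic factor, went from -2.73 to 0.40 (8.77-fold). Klf9 and Per1, transcription regulators that glucocorticoids induce, were higher by log2 differences of 2.0002 and 1.66, while the metallothionein genes Mt1 and Mt2 were 2.40-fold and 4.62-fold lower.

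Of 5819 probes with no gene name that were compared, 43 (0.739%) were at least 4-fold higher and 69 (1.19%) at least 4-fold lower.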
